A study of Mus musculus with 4 samples.

Results

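RNA-binding proteins of lens RNA granules were followed through 7 genes, Tdrd7, Caprin2, Caprin1, Celf1, Rbm24, Stau1 and Stau2, of 18193 genes named on the array. The members are all probe sets that the platform annotation assigns to exactly 1 of these genes, which gave 25 probe sets on Affymetrix mouse expression arrays. RNA of whole newborn lenses (postnatal day 0.5) was measured on 4 arrays of 45101 probe sets each. Per the labels, 2 arrays carried RNA of mice with a homozygous Hsf4 knockout and 2 that of wild-type mice, and all were males of the 129S3 background. The Hsf4 product, heat shock transcription factor 4, regulates genes of the lens, and the study set lenses without it against normal ones. How the knockout allele was made, and whether a sample was 1 animal or a pool, is not stated in the labels, so p-values rest on the spread between arrays alone, and this spread may be technical.

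Lens fibre cells fill with crystallin protein and then break down their nuclei and organelles, after which they can make no new mRNA. Proteins that store, stabilise, transport or silence mRNA in cytoplasmic granules therefore have a recognised place in lens biology. Loss of TDRD7 causes congenital cataract in humans, and Celf1, Caprin2 and Rbm24 have each been tied to lens or eye development in mice or fish.

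A pair of features of the arrays touch all results. The only probe set named for Hsf4 measured 1212 and 413 on the arrays labelled knockout 1 and 2, against 505 and 138 on those labelled wild type 1 and 2, and the labels do not place the probe set inside or outside the deletion. It therefore could not check the labels, and "knockout" below means the arrays labelled so. The Hsf4 probe set was brighter in knockout by a log2 difference of 1.24 between the arrays numbered 1 and 1.48 between those numbered 2. The direction of every difference below rests on the labels. The arrays also differed by the number, 1 or 2, that the labels give in both groups. The deposited medians were 18.5 and 6.58 for knockout 1 and 2, against 21.4 and 10.5 for wild type 1 and 2, and the arrays were brought to 1 distribution by quantile normalization. Xist, the RNA of the inactive X chromosome, was bright on both number 1 arrays (260 in knockout and 605 in wild type) and dim on both number 2 arrays (9.01 and 58.0), although all samples are labelled male. The ratio of 3' to 5' signal for actin was 1.53 and 1.89 on knockout arrays 1 and 2, against 1.67 and 1.51 on wild-type arrays 1 and 2. Many of the differences are therefore also given within number 1 and within number 2. Lens fibre markers had summed intensities of 50080 and 52262 on the knockout arrays, against 51620 and 49374 on the wild-type arrays. Lens epithelium markers summed to 14033 and 11810, against 15148 and 14251. Quantile normalization gives equal ranks the same value on each array, which holds the sums of very bright genes close together. The fibre sums therefore cannot show that the arrays held equal fibre RNA. The sums also do not show single markers. Log2 differences, knockout minus wild type, ran from -1.06 to 1.00 over 9 fibre markers, with 3 higher and 2 lower within both numbers. For 7 epithelium markers they ran from -0.71 to 0.10, with 0 higher and 4 lower.

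Levels below are normalized intensities. Differences are log2(intensity + 16), knockout minus wild type, with the standard error (SE, n = 2 per group) and a 95% interval from limma's moderated linear model. The added 16 shrinks the differences of dim probe sets. Brightness depends on each probe set's own probes, so levels are not compared between probe sets. Of the 25 probe sets, 24 passed the filter on low values (a mean log2 value of at least 4.86, an intensity of about 13.0) and were tested among 22519. The remaining one, a dim Rbm24 probe set (1443715_at), measured 7.78 and 0.28 on the knockout arrays and 9.81 and 8.04 on the wild-type arrays.

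None of the 24 probe sets passed limma's threshold (Benjamini-Hochberg adjusted p under 0.05, adjusted over all 22519), and each had an adjusted p of 1. In all, 4 of the 22519 passed, or 0.0178%, so the test called almost nothing on these arrays. One member probe set, of Celf1, had an unadjusted p under 0.05, where 2.33% of all tested probe sets did. The median log2 difference of the 24 was -0.03, beside -0.01 over all tested probe sets. Knockout and wild-type arrays did not overlap for 10 of the 24, where this held for 27.0% of all tested probe sets. Of the 10, 7 were higher and 3 lower in knockout, where the shares of all tested probe sets were 12.6% higher and 14.4% lower. Of the 7 higher ones, 5 belong to Celf1. Probe sets of 1 gene share a target and are not independent.

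**Figure D1:**
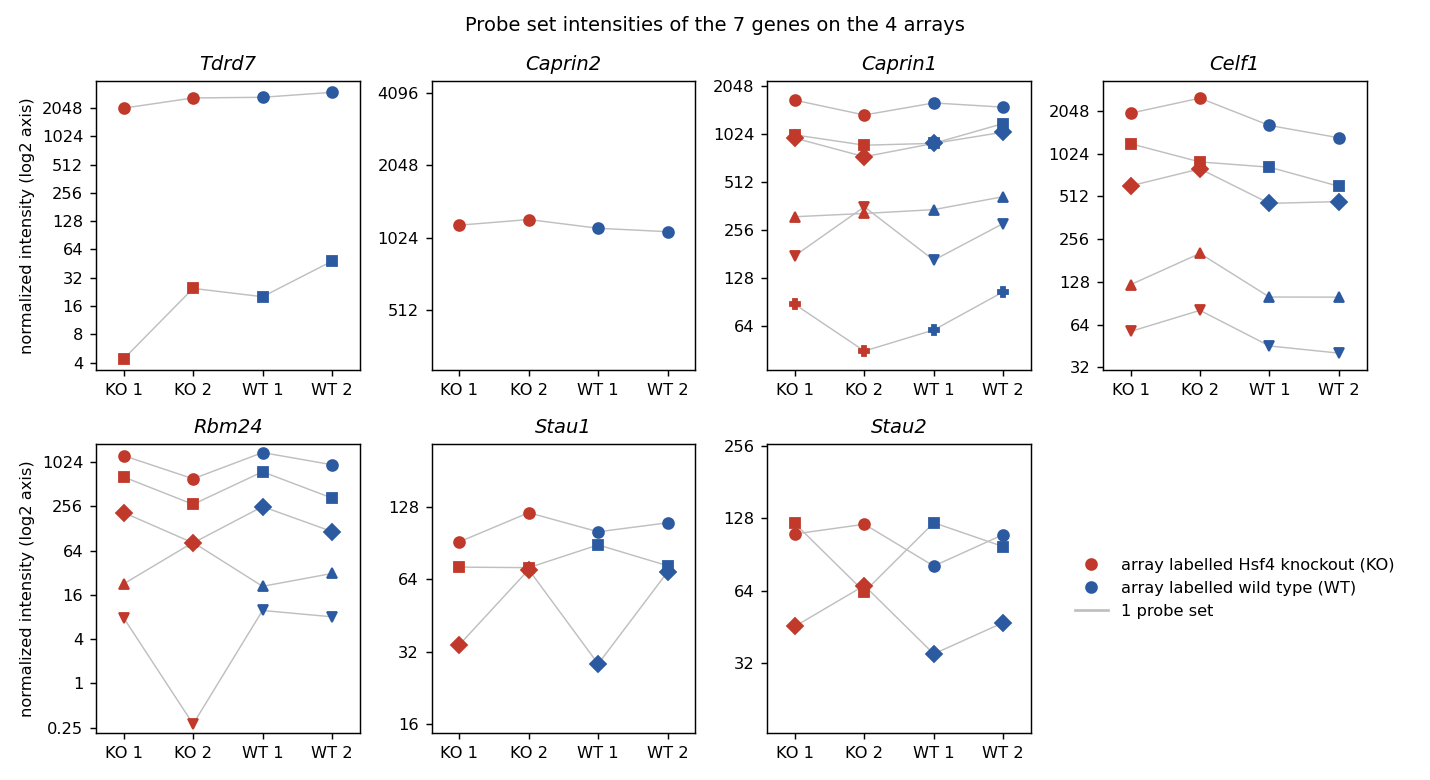
Normalized intensity (log2 axis, with its own range for each gene) of the 25 probe sets on the knockout (KO) and wild-type (WT) arrays, 1 line per probe set. All 5 Celf1 lines are higher on both KO arrays, while the brightest Rbm24 lines differ more between numbers 1 and 2 than between the groups.

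Celf1 encodes a protein that binds GU-rich stretches of mRNA and acts in splicing, translation and mRNA decay. In mouse and fish lenses it is needed for normal fibre cell differentiation. Its brightest probe set, 1426407_at, measured 1973 and 2519 on the knockout arrays, against 1618 and 1324 on the wild-type arrays. Both knockout values were above both wild-type values. The log2 difference was 0.60 (SE 0.23, 95% interval 0.08 to 1.13, unadjusted p = 0.0288), or 1.52-fold, made up of 0.28 for number 1 and 0.92 for number 2. That unadjusted p of limma depended on the setting. It stayed under 0.05 with the other offsets and filters. It was 0.0831 without the intensity trend, 0.0832 with trimmed-mean scaling, 0.697 with median centring and 0.948 with values as deposited. In a blocked fit on the array number this 1 of the 24 probe sets passed (adjusted p = 0.00898), where 1.41% of all tested probe sets did, but there limma set each variance from the trend over all probe sets and not from the spread of the probe set itself. The probe set 1427413_a_at, which by its suffix matches several transcripts of the gene, measured 1203 and 895 in knockout and 822 and 603 in wild type. It had nearly the same log2 difference within number 1 (0.54) and within number 2 (0.56). The probe set 1426408_at measured 607 and 800 in knockout and 457 and 470 in wild type. The dimmer probe sets kept this order. The probe set 1425932_a_at measured 122 and 203 in knockout, against 100.04 and 99.8 in wild type. For 1423932_at the values were 57.3 and 80.6 in knockout and 45.2 and 40.3 in wild type.

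The 5 log2 differences of Celf1 lay close together, between 0.52 and 0.60, and all 5 were higher within both numbers. None of the 5 passed the adjusted threshold, and the intervals of 4 of the 5 included 0. A comparison chosen after these values were seen counted the genes with at least 5 tested probe sets, as many as Celf1 has. Among 306 such genes, Celf1 was the only one whose tested probe sets all had knockout above wild type without overlap (0.327%), and 0 had them all below (0.00%). Since the cut and the pattern were taken from Celf1, its own place in this count was fixed beforehand. With at least 3 tested probe sets, 14 of 2083 genes had them all above (0.672%) and 24 all below (1.15%). The difference within number 2 was larger than that within number 1 for all 5 Celf1 probe sets, though barely so for 1427413_a_at. Without knockout array 2 the log2 difference of the brightest probe set was 0.43, and the 5 ranged from 0.25 to 0.76. On that array retina markers summed to 828, while knockout array 1 had 2239 and the wild-type arrays 2135 and 2111, with 3 of 8 lower within both numbers and none of their probe sets at 0. Erythroid markers summed to 514 there, while knockout array 1 had 135 and the wild-type arrays 91.7 and 158, with 3 of 4 higher within both numbers. Their part in the Celf1 values was not tested. The differences of Celf1 were higher for all 5 probe sets after every normalization between arrays, but with values as deposited only 3 of 5 were, between -0.08 and 0.08, where the median of all tested probe sets was -0.42. Relative to that median all 5 were higher, by 0.34 to 0.50.

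**Figure D2:**
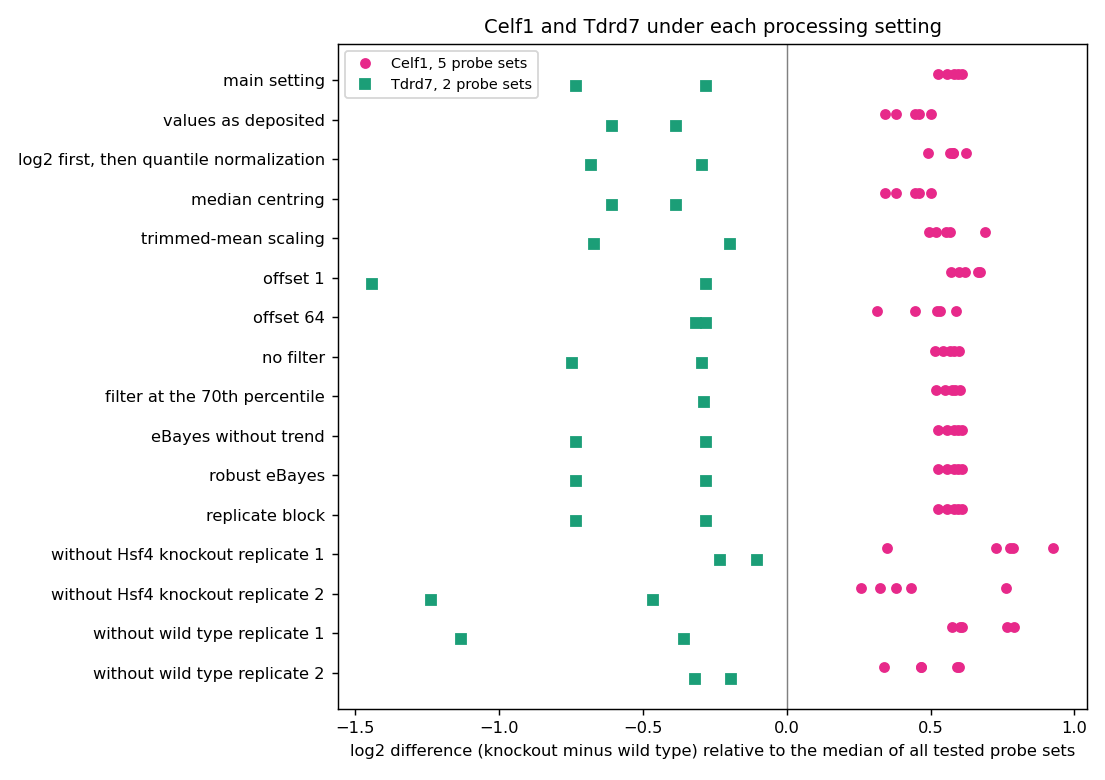
Log2 difference, knockout minus wild type, of the Celf1 probe sets (circles) and the Tdrd7 probe sets (squares) under each processing setting, relative to the median of all tested probe sets under that setting. Celf1 lies right of 0 and Tdrd7 left of 0 in each setting drawn.

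The tested probe sets whose pattern over the 4 arrays was most like the brightest of Celf1 belonged to Tmem63a, Zfp46 and Arih2. Likeness was the Euclidean distance between log2 values, each taken relative to the probe set's own mean, and these were at 0.04, 0.06 and 0.06. Of the other Celf1 probe sets, 1423932_at was the nearest at 0.15, with 34 of the tested probe sets nearer. The probe set 1427413_a_at was the farthest at 0.56, with 3759 nearer.

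Tdrd7 encodes a Tudor domain protein that is a structural component of RNA granules in lens fibre cells. Its main probe set, 1426716_at, measured 2052 and 2633 on the knockout arrays, against 2677 and 3023 on the wild-type arrays. The groups did not overlap, but knockout array 2 and wild-type array 1 lay side by side. The log2 difference was -0.29 (SE 0.21, 95% interval -0.77 to 0.19), with -0.38 within number 1 and -0.20 within number 2. A second, dim probe set, 1459216_at, measured 4.37 and 24.6 in knockout, against 20.1 and 48.0 in wild type. It was lower within both numbers (-0.83 and -0.65), with groups that overlapped, since number 2 arrays were brighter than number 1 arrays in each group. Both Tdrd7 probe sets were lower under every alternative run in which they were tested, from -0.81 to -0.19 for the main one among the processing alternatives.

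Because HSF4 binds heat shock elements, made of inverted GAA units, the 250 bases before the annotated start sites of the members were searched for TTCNNGAA, for GAANNTTC and for the 3-unit forms TTCNNGAANNTTC and GAANNTTCNNGAA on both strands. RefSeq (GRCm38.p6) gave start sites for 6 of the 7 genes, and Stau2 was not matched. Each short form reads the same on both strands. Each 3-unit form is the reverse complement of the other and contains both short forms. A single match was found, upstream of 1 of the 3 start sites of Tdrd7, where TTCNNGAA is present from 52 to 45 bases before the start. Of all 32851 start sites in the table, 7.17% have TTCNNGAA in this window, 6.69% have GAANNTTC and 0.466% have a 3-unit form. The Tdrd7 window is shown because it holds that match, in capitals, and the Celf1 window because Celf1 was the gene with the most uniform difference, although it holds none of these letters in this order. They lie at chr4:45965085-45965334 and chr2:90940147-90940396, both on the plus strand, and each is printed 5' to 3' up to the base before the start site.
Tdrd7: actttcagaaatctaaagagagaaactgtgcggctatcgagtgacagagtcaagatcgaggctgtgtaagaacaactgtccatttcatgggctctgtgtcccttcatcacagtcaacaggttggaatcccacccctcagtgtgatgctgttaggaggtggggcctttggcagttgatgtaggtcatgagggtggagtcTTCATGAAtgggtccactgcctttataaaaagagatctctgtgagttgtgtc
Celf1: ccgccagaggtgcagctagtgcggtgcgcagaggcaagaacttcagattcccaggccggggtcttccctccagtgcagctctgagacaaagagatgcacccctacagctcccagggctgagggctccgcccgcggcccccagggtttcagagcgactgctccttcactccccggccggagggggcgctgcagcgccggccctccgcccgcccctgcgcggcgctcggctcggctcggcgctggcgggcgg
A match describes the letters only, and no binding was measured here.

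Caprin2 and Caprin1 encode related cytoplasmic RNA-binding proteins. CAPRIN1 joins G3BP1 in stress granules and regulates translation, and Caprin2 is strongly induced as lens fibre cells differentiate. The single probe set of Caprin2, 1427944_at, measured 1154 and 1217 on the knockout arrays, against 1120 and 1083 on the wild-type arrays. The 4 values lay close together, and the knockout pair was just above the wild-type pair. The log2 difference was 0.10 (SE 0.23, 95% interval -0.41 to 0.62), with 0.04 within number 1 and 0.17 within number 2. Its direction is not settled, since it was -0.51 with values as deposited and -0.34 with median centring, or -0.08 relative to the median of all tested probe sets in both.

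Caprin1 was measured by 6 probe sets, 5 with log2 differences below 0 and 1 above, from -0.28 to 0.21. The brightest, 1448347_a_at, measured 1679 and 1355 in knockout, against 1614 and 1518 in wild type. The knockout arrays stood on both sides of the wild-type pair, and the log2 difference was -0.05 (SE 0.23, 95% interval -0.57 to 0.46). A second bright probe set, 1416461_at, measured 1016 and 875 in knockout and 899 and 1198 in wild type. The probe set 1416462_at measured 970 and 741, against 898 and 1057. In all 3, knockout was higher within number 1 and lower within number 2. The dim probe set 1416463_at showed this split most, with 0.44 within number 1 and -0.998 within number 2. Only 1433901_at was lower within both numbers without overlap, at 311 and 326 in knockout, against 345 and 416 in wild type. The probe set 1448348_at measured 177 and 359 in knockout, against 166 and 282 in wild type, and was higher within both numbers. With median centring, too, 1 of the 6 was higher relative to the median of all tested probe sets.

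**Figure D3:**
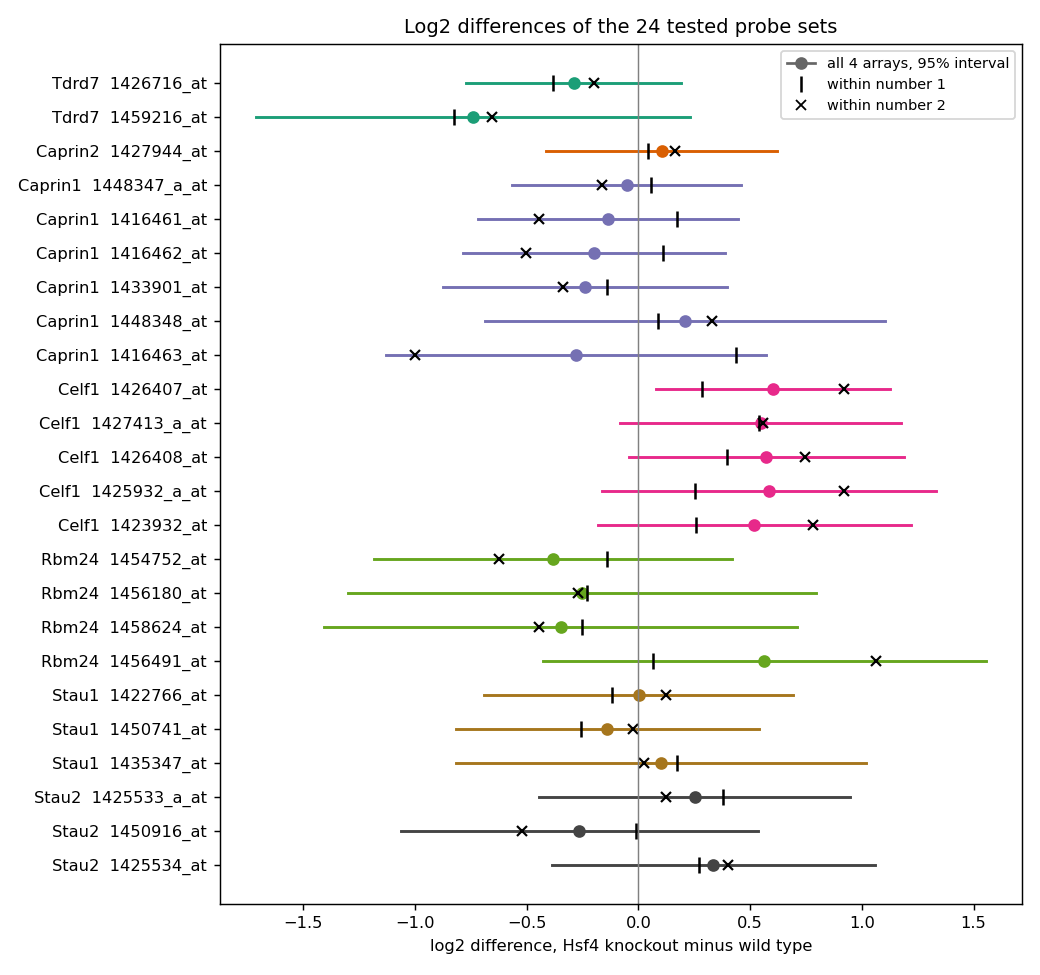
Log2 difference, knockout minus wild type, of the 24 tested probe sets with limma's 95% interval (bars), and the difference within number 1 (upright ticks) and within number 2 (crosses). The interval of 1426407_at of Celf1 lies above 0, and the other 23 include 0.

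Rbm24 encodes a protein with 1 RNA recognition motif that regulates splicing in striated muscle and stabilises mRNAs, and in mouse it has been tied to Sox2 mRNA in the eye. Its brightest probe set, 1454752_at, measured 1253 and 608 on the knockout arrays, against 1381 and 945 on the wild-type arrays. The lowest value was that of knockout array 2, and the groups overlapped. The log2 difference was -0.38 (SE 0.36, 95% interval -1.18 to 0.42), with -0.14 within number 1 and -0.62 within number 2. Without knockout array 2 it was 0.13. The probe set 1456180_at measured 643 and 273 in knockout, against 757 and 332 in wild type. For 1458624_at the values were 211 and 81.4 in knockout and 254 and 116 in wild type. All 3 were lower in knockout within both numbers, but the array number moved them further than the group did: number 2 was lower than number 1 by a log2 difference between -1.17 and -0.78. The dim 1456491_at went the other way, with 22.6 and 82.7 in knockout and 20.9 and 31.3 in wild type, and number 2 was higher than number 1 in both groups.

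Because Rbm24 is also a gene of striated muscle, muscle markers are given beside it. They summed to 155 and 179 on the knockout arrays, against 2842 and 1433 on the wild-type arrays. All 11 of the 11 tested were lower in both pairs of arrays (median log2 difference -2.24), and 2 passed the adjusted threshold, Actc1 and Myl1, a sarcomeric actin and a myosin light chain. With the number as a block, where 1.41% of all tested probe sets passed, all 11 did. Of the 12 on the array, 5 were under an intensity of 13.0 on both knockout arrays, and none was at 0. Fibroblast markers summed to 445 and 713 in knockout, against 1275 and 1888 in wild type, and 8 of 8 were lower in both pairs (median -1.41), of which 6 passed with the number as a block and 0 without it. The part of muscle or fibroblast RNA in the values of Rbm24 and the other members was not tested. Whether this RNA came from the lens or from tissue adhering to it was not tested either. In RNA of whole lenses, fewer cells of a type, less adhering tissue and less RNA per cell cannot be told apart.

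Stau1 and Stau2 encode Staufen proteins, which bind double-stranded stretches of mRNA, carry mRNAs along the cytoskeleton and recruit a decay machinery. The brightest Stau1 probe set, 1422766_at, measured 91.6 and 121 on the knockout arrays, against 101 and 110 on the wild-type arrays. The knockout values lay on either side of the wild-type values. The log2 difference was 0.00 (SE 0.31, 95% interval -0.69 to 0.69). The probe set 1450741_at measured 71.9 and 71.5 in knockout, against 88.9 and 72.8 in wild type, a pair of groups that only just did not overlap. For 1435347_at the number decided the level, with 34.1 in knockout and 28.4 in wild type on the number 1 arrays, and 70.2 in knockout and 68.6 in wild type on the number 2 arrays.

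For Stau2, 1425533_a_at measured 110 and 121 in knockout, against 81.0 and 110 in wild type, with a log2 difference of 0.25 (SE 0.31, 95% interval -0.44 to 0.95). The groups met at about the same intensity without overlapping. The probe set 1425534_at measured 45.5 and 67.2 in knockout, against 34.9 and 47.1 in wild type, and was also higher within both numbers, by 0.27 and 0.40. The probe set 1450916_at measured 122 and 63.2 in knockout, against 123 and 97.6 in wild type. It was nearly equal on the number 1 arrays and lower in knockout on the number 2 arrays. Probe sets of both Staufen genes thus disagreed in direction, as did those of 68.4% of the 2083 genes with at least 3 tested probe sets. Relative to the median of all tested probe sets, 1 of 3 for Stau1 and 2 of 3 for Stau2 were higher with values as deposited.

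**Figure D4:**
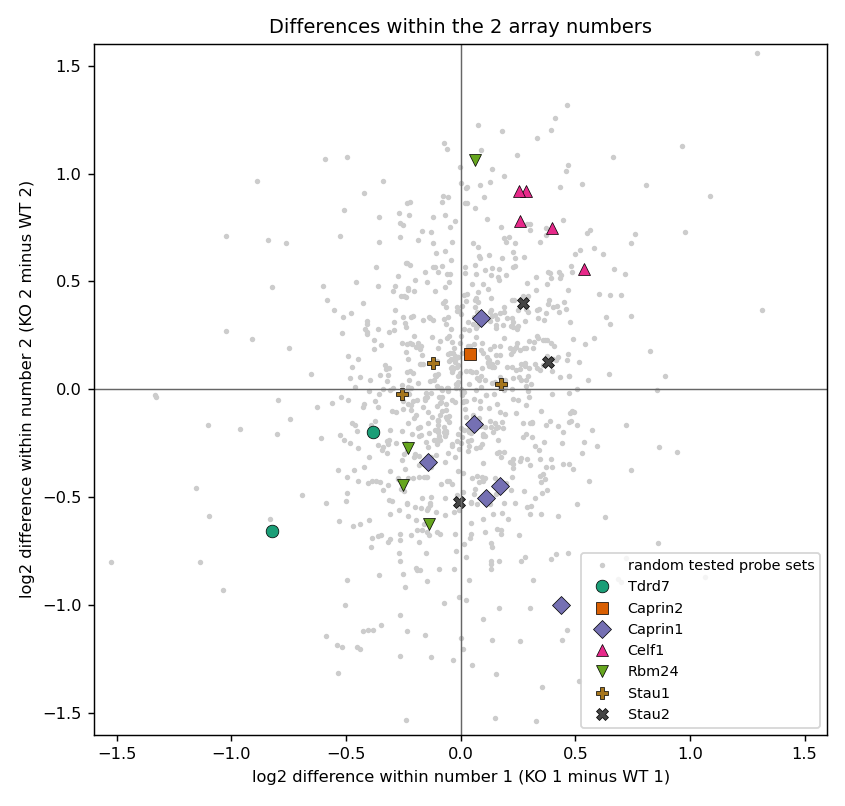
Log2 difference within number 1 (horizontal axis) against that within number 2 (vertical axis) for the 24 tested member probe sets and a random sample of other tested probe sets, within 1.6 of 0 on both axes. The Celf1 probe sets stand in the upper right, Tdrd7 and 3 of the Rbm24 probe sets in the lower left, and 4 of the Caprin1 probe sets in the lower right.

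In all, 11 of the 24 member probe sets were higher and 8 lower within both numbers, where 25.9% of all tested probe sets were higher and 27.4% lower within both. Of the 11, 5 belong to Celf1, and of the 8, 3 belong to Rbm24, and probe sets of 1 gene are not independent. By the brightest probe set of each gene, 3 of the 7 genes were higher and 2 lower within both numbers. The absolute difference between the numbers exceeded that between the groups for 11 of the 24, and for 13799 of the 22519. By gene, it exceeded it for all 4 tested probe sets of Rbm24, 2 of 3 each of Stau1 and Stau2, 2 of 6 of Caprin1, 1 of 2 of Tdrd7, and 0 of the 5 of Celf1 and the 1 of Caprin2.

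Other proteins of RNA granules were read from 5 further lists with 1 probe set per gene, the brightest one tested. Of the 68 genes in them, 53 were tested. None passed the threshold in limma, where 0.0259% of all 11595 genes did so in the same way, and 2 had an unadjusted p under 0.05, where 2.32% of all genes did. Their median log2 difference was 0.05, beside -0.01 for all genes. Within both numbers 21 of the 53 were higher and 18 lower, where 26.1% and 27.5% of all genes were.

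In the list of P-bodies, sites of mRNA decapping and storage, 5 of 14 genes were higher and 4 lower within both numbers. Lsm14a, a P-body protein that represses translation, measured 753 and 970 in knockout, against 529 and 584 in wild type. The groups were well apart (log2 difference 0.61, SE 0.27), though its other tested probe sets had -0.45 and 0.18. Edc4, a scaffold of the decapping complex, measured 176 and 185, against 145 and 129, and Dcp2, the decapping enzyme, measured 94.0 and 88.4, against 101 and 136. In the stress granule list 7 of 17 genes were higher and 6 lower within both numbers. Fmr1, the fragile X protein and a CAPRIN1 partner, measured 222 and 168 in knockout, against 271 and 290 in wild type, while its 2 other tested probe sets had log2 differences of 0.33 and 0.44. Pum2, an RNA-binding repressor of translation, measured 745 and 804, against 562 and 642, with log2 differences of 0.09 and 0.35 for its other tested probe sets. Tia1, a nucleator of stress granules, measured 239 and 254, against 340 and 285, while its 3 other tested probe sets ran from -0.22 to 0.23.

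In the list of transport granules and Staufen decay 3 of 10 genes were higher and 5 lower within both numbers. Syncrip, an RNA-binding protein of transport granules, measured 342 and 263 on the knockout arrays, against 523 and 507 on the wild-type arrays. Both knockout arrays were well below both wild-type arrays, with a log2 difference of -0.75 (SE 0.28, adjusted p = 1, or 0.0186 with the number as a block), and its 4 other tested probe sets were also below 0, from -0.43 to -0.07. Igf2bp3, an mRNA-binding protein of growing tissues, measured 151 and 221, against 130 and 136, but the log2 differences of its 5 other tested probe sets ran from -0.36 to 0.42. Dhx9, an RNA helicase, measured 251 and 194, against 352 and 226, while its other tested probe set had 0.07. Of the 13 genes of the Tudor and germ granule list only 3 were tested, and 9 were below the filter. Those 3 were Tdrd3, Snd1 and Tdrkh, with log2 differences of 0.36, 0.22 and 0.24, all higher within both numbers. The 2 other tested probe sets of Tdrd3 disagreed, at -0.29 and 0.24, and those of Snd1 had 0.40 and 1.05. Among the relatives of Celf1 and Rbm24, 3 of 9 were higher and 3 lower within both numbers. Celf2, the closest paralog of Celf1, measured 314 and 147 in knockout, against 520 and 306 in wild type, with a log2 difference of -0.84 (SE 0.40, adjusted p = 1, or 0.00897 with the number as a block) and groups that overlapped by a small margin. Its 3 other tested probe sets had -0.48 to -0.39. Celf4 and Celf5, CELF proteins of neurons, had -0.44 and -0.34, and the other tested probe sets of Celf4 had -0.14 and -0.02. The retina markers given above had a median log2 difference of -0.54. The part of retina RNA in the values of these CELF genes was not tested.

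**Figure D5:**
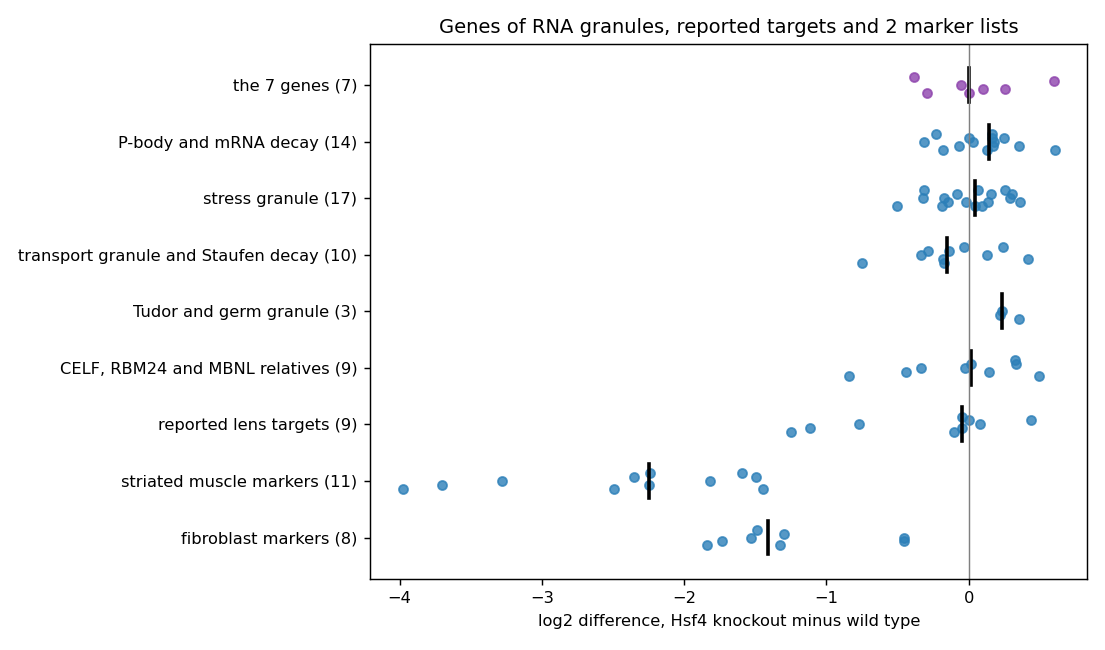
Log2 difference, knockout minus wild type, of the brightest tested probe set of each gene (points) and the median of each list (bars), with the number of genes in brackets. The 5 granule lists and the 7 genes lie around 0, and the muscle and fibroblast markers lie left of it.

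Genes reported elsewhere as lens targets of the members were set beside them. All 9 were tested, none passed the threshold, 1 was higher and 4 lower within both numbers, and the median log2 difference was -0.05. In limma's fit with the number as a block 3 passed, Dnase2b (adjusted p = 1.38e-06), Hspb1 (0.000723) and Sox2 (0.0337). In that fit 1.41% of all tested probe sets passed, and each variance was set from the trend over all probe sets. Dnase2b, which encodes the DNase of fibre cell nuclear breakdown and whose mRNA was reported to be low in Celf1-deficient mouse lenses, measured 143 and 262 on the knockout arrays, against 402 and 579 on the wild-type arrays. Its values in the 2 groups did not overlap, with a log2 difference of -1.25 (SE 0.36, adjusted p = 1). A link between its values and those of Celf1 was not tested. Hspb1, a small heat shock protein reported as low in Tdrd7-deficient mouse lenses, measured 75.3 and 124 in knockout, against 354 and 147 in wild type. Most of its log2 difference of -1.12 (SE 0.43, adjusted p = 1) came from number 1 (-2.02 within number 1 and -0.21 within number 2), and a second probe set had -1.26. Other reported targets of Tdrd7 stayed close, with -0.05 for Crybb3, a beta crystallin, and 0.00 for Epha2, an ephrin receptor.

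The arrays measured RNA only, so a target altered in translation or in protein would not show here. Among the reported Celf1 targets, Cdkn1b and Cdkn1a, inhibitors of the cell cycle, had 0.08 and -0.11 in RNA. A second probe set of Cdkn1b had 0.33. The first probe set of Cdkn1b measured 371 and 203 in knockout, against 617 and 103 in wild type, so that its direction differed between the numbers. Prox1 and Pax6, lens transcription factors, had 0.44 and -0.05, both with groups that overlapped and with other tested probe sets on both sides of 0. Sox2, the reported Rbm24 target, measured 312 and 110 in knockout, against 463 and 235 in wild type. It was lower in knockout within both numbers (-0.55 and -0.99), as 27.4% of all tested probe sets were, and lower on number 2 in both groups. The log2 difference was -0.77 (SE 0.48, adjusted p = 1). Its likeness to Rbm24 was not tested.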

How the data were processed

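The authors deposited 1 linear intensity value per probe set and array for 4 arrays; per the labels, the RNA was column-purified with a DNase step, reverse transcribed from an oligo-T7 primer and labelled with biotin. The number of arrays limits the precision. Software, probe summary, background correction and genome build are not stated in the labels. Quantile normalization of the deposited intensity values used limma (version 3.58.1, R 4.3.3), followed by adding 16 and taking log2. After that the 64 control probe sets were left out; of 45037 others, 34945 had 1 gene symbol, 932 several and 9160 none; those with several were given no name. Symbols were updated through the gene identifiers of RefSeq, and older synonyms were matched that way. Probe sets were tested where their mean log2 value reached the median (4.86).

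The comparison of knockout with wild type used limma's moderated test (intensity trend in the variance), with Benjamini-Hochberg adjustment over all 22519 tested probe sets and a threshold of 0.05. The procedure was also run on simulated data with independent noise and no effect of the array number, so that run cannot show how it performs on these arrays. Named genes were all members, Hsf4, the reported lens targets, the 3 genes of each granule list and up to 2 of each marker list with the lowest p, and the 3 nearest patterns; Xist was added after values were seen. The members and lists were chosen with earlier results of these data known.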

Additional observations from a re-analysis of the deposited data

How the results depend on the processing

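The 7 genes' brightest probe sets, the counts of calls and the members' median were recomputed under 13 alternatives and with each array left out. In the runs without an array, that array was dropped only after normalization and filtering, so it still shaped the values. The labels give no meaning to the shared numbers 1 and 2, and with 2 pairs the pairing cannot be settled: deviations of same-numbered arrays from their group means correlated at 0.43. With the number as a replicate block, limma called 317 probe sets in place of 4. In that fit 1 member probe set was called, 1426407_at of Celf1 (0.60, adjusted p = 0.00898), and 5 listed genes, Celf2, Dnase2b, Hspb1, Sox2 and Syncrip. With 1 residual degree of freedom, that fit set each variance from the trend over all probe sets. No other brightest member probe set changed its side of the threshold. The calls over all probe sets numbered 0 without a filter (1432 had an unadjusted p under 0.05), 0 for values as deposited (22) and 0 when the probe sets of each gene were averaged (271). Median centring gave 16. Leaving out arrays gave 4 to 566 calls (566 without knockout array 1 and 92 without knockout array 2), 0 among members each time and 0 to 1 among listed genes (Sox2 without knockout array 1, Dnase2b without knockout array 2). Each of these fits has a group of 1 array, which is assumed to vary like the 2 of the other group.

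The median of the member probe sets was -0.55 with values as deposited and -0.38 with median centring, where the median over all probe sets was -0.42 and -0.25. Under these settings Caprin2 reversed to -0.51 and -0.34, Stau1 to -0.51 and -0.34, and Stau2 to -0.25 and -0.077. Relative to those medians, Caprin2 was at -0.08, Stau1 at -0.09 and Stau2 at 0.17 in both, so Stau2 stayed higher. Stau1 was also -0.0056 with trimmed-mean scaling and -0.012 when its probe sets were averaged. Without single arrays, Celf1 ranged from 0.43 to 0.78, Tdrd7 from -0.47 to -0.11, Caprin2 from 0.07 to 0.14, Caprin1 from -0.21 to 0.10, Rbm24 from -0.89 to 0.13, Stau1 from -0.17 to 0.18 and Stau2 from 0.07 to 0.44. Caprin1 (0.10) and Rbm24 (0.13) reversed without knockout array 2. Stau1 did so there (-0.17) and in the absence of wild-type array 1 (-0.05). The causes were not tested. Tdrd7 and Celf1 kept their direction under each of these settings.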
